A study of Homo sapiens with 2 samples.

Results

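The tryptases and the other genes that mark mast cells and basophils were described in HL60-EIF2S3 cells, without doxycycline (DOX) and with it. The 9 genes were taken by symbol from the deposited expression table of 58302 genes: TPSAB1, TPSB2, TPSD1, CPA3, HDC, FCER1A, MS4A2, KIT and GATA2. They were chosen by their role and with their FPKM values and ratios in these libraries known, so their levels are a description and no test was made of them. HL60 is an established human myeloid leukemia line, labelled here as acute myeloid leukemia cells. Both libraries came from HL60 cells that carry EIF2S3, the gene for the gamma subunit of initiation factor eIF2, in the Retro-X Tet-Off Advanced system, in which doxycycline shuts the transgene off. The library labelled DOX(-) came from untreated cells, with the transgene on by design. The library labelled DOX(+) came from cells treated with DOX, with the transgene off by design. The sources used here do not say whether the line was 1 clone, or give the dose of doxycycline or its duration.

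Mast cells and basophils are granulocytes of allergic reactions and of defence against parasites. They carry the high-affinity IgE receptor on their surface, and when antigen joins the bound IgE they release granules filled with histamine and proteases. Mast cell granules are rich in tryptases, serine proteases held on the proteoglycan serglycin, and in carboxypeptidase A3. Mast cells need the receptor tyrosine kinase KIT and its ligand, stem cell factor, to survive. GATA2 is a transcription factor of blood stem cells that both lineages keep. HL60 cells resemble promyelocytes, the precursors of neutrophils, whose granules hold other serine proteases.

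There was 1 library in each condition, so every comparison below is between 2 libraries, with no replicate check and no p-value. Depth was 16577632 fragments for DOX(-) and 18521255 for DOX(+), as recovered from the steps of the values, so that 1 FPKM (the fragment count per transcript length and library depth) stood for 16.6 and 18.5 fragments per kb. EIF2S3 itself was at 132.9 and 126.2 FPKM, in this order of libraries. Its ratio of 1.05 had a counting interval of 0.927 to 1.196 on the shortest annotated transcript, which included equal levels. A longer transcript would give a narrower interval and was not tried. On this measure the overexpression that the design gives to DOX(-) was not resolved, and the conditions are named by their labels. These values do not separate transgene reads from those of the cell's own gene. The share of the summed FPKM held by mitochondrial genes was 22.5% and 27.7%. Of the promyelocyte markers, ELANE, PRTN3, AZU1 and CTSG stood between 52.3 and 689.2 FPKM in the 2 libraries, whereas MPO, the myeloperoxidase gene, was at only 0.274 and 0.469 FPKM.

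In what follows the DOX(-) value comes first, and a ratio is DOX(-) over DOX(+). A 95% counting interval was likewise given to each ratio from the fragments that the shortest annotated transcript implies. Such an interval covers counting error only: without molecular identifiers, PCR copies of 1 molecule are counted apart. Genes of 1 FPKM or more in either library were compared, 11525 in all, and a gene was counted as higher or lower when log2(FPKM + 1) differed by at least 1.5-fold. Because 1 FPKM is added, this scale understates the change of low genes. In bulk RNA, fewer cells that express a gene and less RNA per cell cannot be told apart.

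Regulatory sequence is shown first for CPA3 and FCER1A, since both genes have a GATA motif, the kind of site that GATA factors such as GATA2 bind, in a stretch free of annotated exons before the start site that RefSeq's promoter table uses. For both genes that start site lies inside the gene span given below, downstream of the first base annotated for the gene. The sequences are RefSeq's (GRCh38.p14), 5′ to 3′ on the strand of the gene, with the motif in capitals. The windows are chr3:148865046-148865255 (plus strand) and chr1:159302086-159302305 (plus strand).
CPA3: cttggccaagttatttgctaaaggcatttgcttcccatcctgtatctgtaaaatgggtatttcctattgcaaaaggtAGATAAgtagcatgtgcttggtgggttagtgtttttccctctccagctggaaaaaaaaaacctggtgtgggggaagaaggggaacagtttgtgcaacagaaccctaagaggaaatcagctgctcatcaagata
FCER1A: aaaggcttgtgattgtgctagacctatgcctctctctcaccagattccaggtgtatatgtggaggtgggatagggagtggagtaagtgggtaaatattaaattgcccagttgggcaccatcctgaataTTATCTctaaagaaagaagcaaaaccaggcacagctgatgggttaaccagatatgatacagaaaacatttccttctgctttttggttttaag

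The motif searched was the core GATA with an A or a T before it and an A or a G after it, on both strands, in the 250 bases before the start site. Promoters of 6 of the 9 genes were in the table (CPA3, HDC, FCER1A, MS4A2, KIT and GATA2, the last with 2 windows), and those of TPSAB1, TPSB2 and TPSD1 were not. A match was found for 3 of the 6 genes, CPA3 (at -173 and -45 from the start site), FCER1A (at -122) and MS4A2 (at -54). The matches at -45 and -54 lay within or across the edge of annotated exons and are not printed. Of all 35116 promoters in the table, 22.3% had a match in the same stretch. The match is a description of letters. The 3 genes with one differed widely in level, since CPA3 was listed at 0 in both libraries, MS4A2 stood near 0.1 FPKM, and FCER1A was the most abundant member outside the tryptases.

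The tryptase genes TPSAB1 and TPSB2 were the most abundant of the 9 in the library labelled DOX(-), and by plain FPKM both were more than 2-fold higher there than in DOX(+). TPSAB1 (ENSG00000172236) encodes the alpha or beta-1 tryptase, depending on the allele, and lies on chromosome 16 from 1240696 to 1242554 (GRCh38, plus strand). Its level was 7.24 FPKM in DOX(-) against 2.98 FPKM in DOX(+). The ratio was 2.43 (counting interval 1.67 to 3.51). TPSB2 (ENSG00000197253), which encodes beta-2 tryptase, lies on the same chromosome from 1227272 to 1230184 on the minus strand. Its values were 4.55 and 1.75 FPKM, and the ratio was 2.60 (interval 1.75 to 3.89). On the log2(FPKM + 1) scale the differences were 1.05 for TPSAB1 and 1.01 for TPSB2. Neither interval included equal levels, on the shortest or on the longest annotated transcripts. The third tryptase, TPSD1 (delta tryptase, ENSG00000095917, chromosome 16, 1256059 to 1258998), was listed at 0 in both libraries, which at a floor of 3 fragments allows up to 0.202 FPKM in DOX(-) and 0.181 FPKM in DOX(+).

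**Figure D1:**
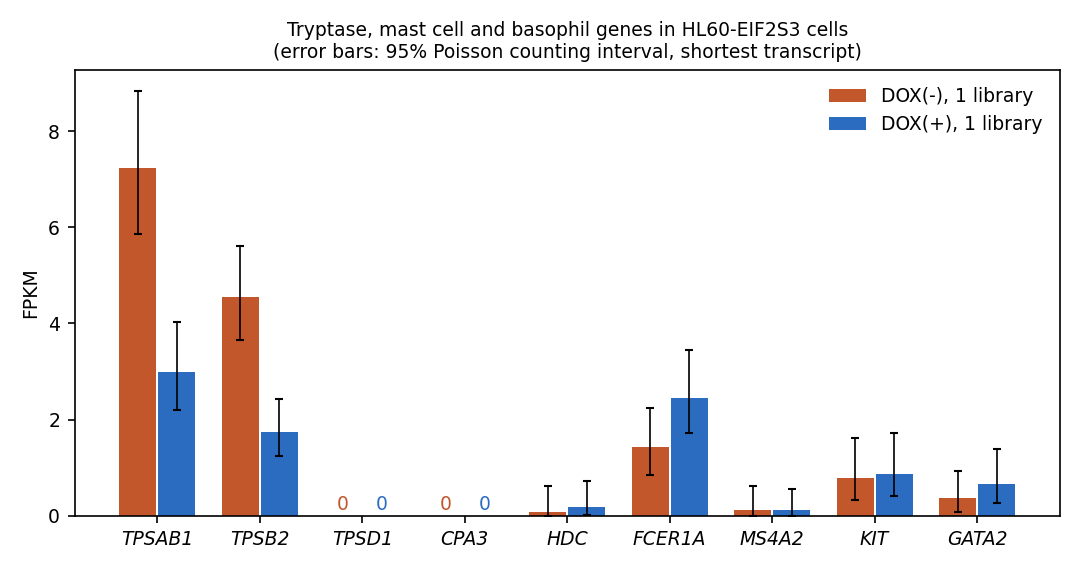
FPKM of the 9 genes in the library labelled DOX(-) (orange) and the library labelled DOX(+) (blue), 1 library each, with 95% Poisson counting intervals on the shortest transcript as error bars and a 0 where a gene is listed at 0. TPSAB1 and TPSB2 are higher in DOX(-), at 7.24 and 4.55 FPKM against 2.98 and 1.75 FPKM, and FCER1A is lower there, at 1.42 against 2.45 FPKM.

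The tryptase genes are near copies of each other, so their separate values are uncertain. Of the 1076 windows of 100 bases in the main TPSAB1 transcript (1175 bases), 635 (59.0%) occur letter for letter in the main TPSB2 transcript. The share was 71.4% for windows of 50 bases and 51.9% for windows of 150 bases. TPSD1 is less alike: 6 of the 1076 windows of TPSAB1 were found in its transcripts, and 83 of the 1400 windows of TPSD1's longest transcript (5.93%) in those of TPSAB1 or TPSB2. A fragment inside a shared window can be given to either gene, and the sources used here do not say how the authors divided such fragments.

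The sum of the 3 genes does not depend on that division as far as the transcripts are of like length. It was 11.8 FPKM in DOX(-) against 4.73 FPKM in DOX(+). On 185.0 and 82.4 fragments, the ratio of 2.49 had a counting interval of 1.93 to 3.31. TPSAB1 gave 61.4% of this sum in DOX(-) and 63.0% in DOX(+), and TPSB2 the rest. Counted in fragments on the shortest transcripts, the share of TPSAB1 was 52.5% (95% Clopper-Pearson interval 45.0% to 59.8%) in DOX(-) and 54.2% (43.5% to 65.9%) in DOX(+). On the longest transcripts TPSAB1 had 162.8 of 264.8 fragments in DOX(-) and 75.0 of 118.8 in DOX(+), a larger share in each library. The share in fragments therefore depends on the transcript length taken. The summed level differed 2.49-fold between the libraries, while the shares of the pair on the shortest transcripts had overlapping intervals. TPSAB1 has 4 annotated transcripts and TPSB2 has 3, and a change in the division between transcripts of unequal length could also move an FPKM value. That was not tested.

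**Figure D2:**
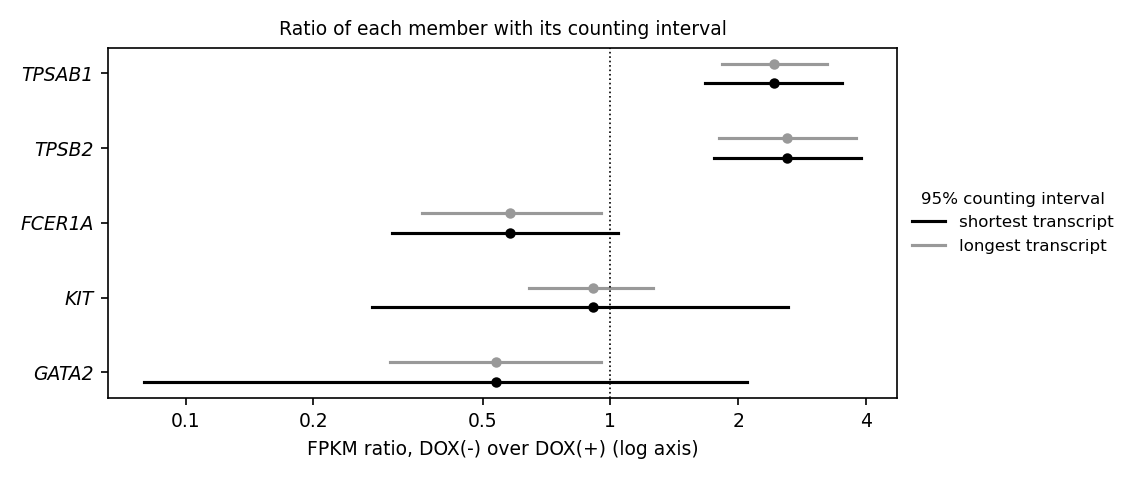
FPKM ratio, DOX(-) over DOX(+), on a log axis for the 5 genes with more than 3 fragments in either library on the shortest transcript; lines are 95% counting intervals with fragments taken on the shortest (black) or longest (grey) annotated transcript, and the dotted line marks equal levels. The intervals of TPSAB1 and TPSB2 lie above 1 with both lengths, those of FCER1A and GATA2 cross 1 with the shortest only, and that of KIT crosses 1 with both.

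The other genes around the tryptases were mostly at or near 0 in both libraries. The table lists 20 other genes within 100 kb of TPSAB1, and 15 of them were at 0 in both libraries. TPSB2 lies 10.5 kb before TPSAB1 on the chromosome, and TPSD1 13.5 kb after it. TPSG1, the gene of the membrane-bound gamma tryptase, and the pseudogenes PRSS29P and TPSP2 were listed at 0. CACNA1H, a calcium channel gene, was at 0.00780 and 0.0174 FPKM. Of 8 tryptase-like protease genes and pseudogenes of chromosome 16p13 in a list written for this purpose, 6 were at 0 in both libraries, and PRSS21 (0.0247 and 0.0332 FPKM) and PRSS27 (0.0673 and 0.1005 FPKM) were close to 0.

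**Figure D3:**
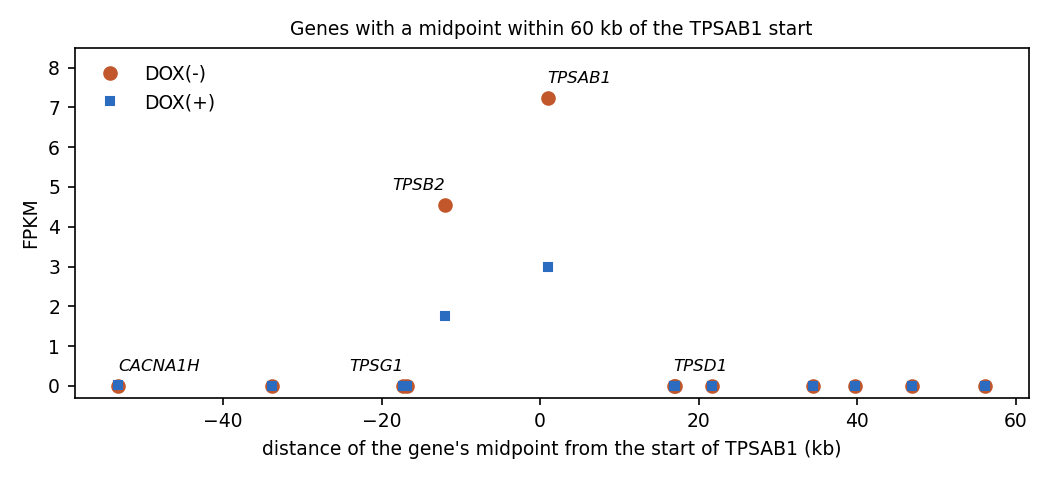
FPKM of the 13 genes whose midpoint lies within 60 kb of the TPSAB1 start, by the distance of that midpoint in kb, in DOX(-) (orange circles) and DOX(+) (blue squares). TPSAB1 and TPSB2 stand above 1 FPKM in both libraries, and the other 11 genes lie at or near 0.

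The other granule genes of the lineage were absent or close to it. CPA3 (ENSG00000163751, chromosome 3, 148865256 to 148897196), the gene of the mast cell carboxypeptidase that trims peptides beside the tryptases, was listed at 0 in both libraries. The floor allows it up to 0.331 FPKM in DOX(-) and 0.297 FPKM in DOX(+). HDC (ENSG00000140287, chromosome 15, 50241947 to 50266026), the enzyme that makes histamine from histidine, was at 0.0754 and 0.187 FPKM. On its shortest transcript these values are fewer than 3 fragments in each library, so no ratio is given. On its longest they are 3.38 and 9.39 fragments, and the interval of 0.0649 to 1.49 included equal levels. In DOX(-), then, tryptase transcripts stood at 11.8 FPKM in sum beside a CPA3 value of 0 and an HDC value below 0.1 FPKM.

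The IgE receptor is built from an alpha chain that binds IgE (FCER1A), a beta chain that amplifies the signal (MS4A2) and gamma chains shared with other Fc receptors (FCER1G). FCER1A (ENSG00000179639, chromosome 1, 159289714 to 159308224) was at 1.42 FPKM in DOX(-) against 2.45 FPKM in DOX(+), opposite in direction to the tryptases. Its ratio was 0.581, with a counting interval of 0.306 to 1.04 on the shortest transcript, which included equal levels, and 0.359 to 0.950 on the longest, which did not. The log2(FPKM + 1) difference was -0.51, short of the 1.5-fold rule. MS4A2 (ENSG00000149534, chromosome 11, 60088261 to 60098466) was at 0.127 and 0.124 FPKM, under 3 fragments on its shortest transcript in both libraries. On its longest transcript these values are 7.38 and 8.05 fragments, and the interval of 0.302 to 3.09 included equal levels. FCER1G was at 23.8 and 24.7 FPKM. The gamma chain was therefore abundant at like levels in both libraries, the alpha chain low, and the beta chain lower still.

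KIT (ENSG00000157404, chromosome 4, 54657918 to 54740715), the stem cell factor receptor, was at 0.783 and 0.862 FPKM. The ratio of 0.908 had a counting interval of 0.275 to 2.62 on the shortest transcript and 0.644 to 1.26 on the longest, and both included equal levels. GATA2 (ENSG00000179348, chromosome 3, 128479427 to 128493185) was at 0.358 and 0.664 FPKM, a ratio of 0.539. Its interval of 0.0799 to 2.097 on the shortest transcript included equal levels, and that of 0.302 to 0.952 on the longest did not. Whether counting error alone resolved the direction for GATA2 thus depended on the transcript length taken.

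By FPKM, which is per length, the order in DOX(-) was TPSAB1, TPSB2, FCER1A, KIT, GATA2, MS4A2 and HDC, with CPA3 and TPSD1 at 0. The Poisson counting interval of TPSAB1 (5.87 to 8.82 FPKM) lay above that of TPSB2 (3.65 to 5.61 FPKM), which lay above that of FCER1A (0.841 to 2.24 FPKM). These intervals do not cover the unknown division of shared fragments between TPSAB1 and TPSB2, so the separate place of each tryptase in the order is uncertain. Below FCER1A each interval overlapped that of the next gene in the order. In DOX(+) FCER1A took the place after TPSAB1, and the intervals of TPSAB1 (2.19 to 4.02 FPKM), FCER1A (1.72 to 3.44 FPKM) and TPSB2 (1.25 to 2.42 FPKM) overlapped from each to the next. For each tryptase taken singly, the gap to the IgE receptor alpha chain seen in DOX(-) was therefore not resolved in DOX(+). The tryptase sum in DOX(+) was 4.73 FPKM against 2.45 FPKM for FCER1A, and no interval was computed for the level of the sum.

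Of the 9 genes, 7 were listed above 0 in both libraries, and 3 passed the filter of 1 FPKM (TPSAB1, TPSB2 and FCER1A). KIT was nearest below the filter, at 0.862 FPKM in DOX(+). Most genes that mark mast cells and basophils were thus under 1 FPKM in both libraries. Counted by the 1.5-fold rule, 2 of the 3 were higher in DOX(-), both also past 2-fold, and 0 were lower. Rescaled without mitochondrial genes, the log2 ratios were 0.99 for TPSAB1 and 0.96 for TPSB2, so neither passed 2-fold on this scale. Among all 11525 compared genes, 3.11% were at least 1.5-fold higher in DOX(-) and 4.06% at least 1.5-fold lower, and 0.833% and 1.2% passed 2-fold. Among the 5626 genes whose higher value was 2 to 10 FPKM, as for these 3, the shares were 3.16% and 4.55% at 1.5-fold. Since the 9 genes were chosen with these values in view, and TPSAB1 and TPSB2 share reads, nothing is read from the count. The log2 ratio was above 0 for TPSAB1, TPSB2 and MS4A2, and below 0 for HDC, FCER1A, KIT and GATA2. The sign of MS4A2 turned when the libraries were rescaled without mitochondrial genes (from 0.0038 to -0.0041).

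**Figure D4:**
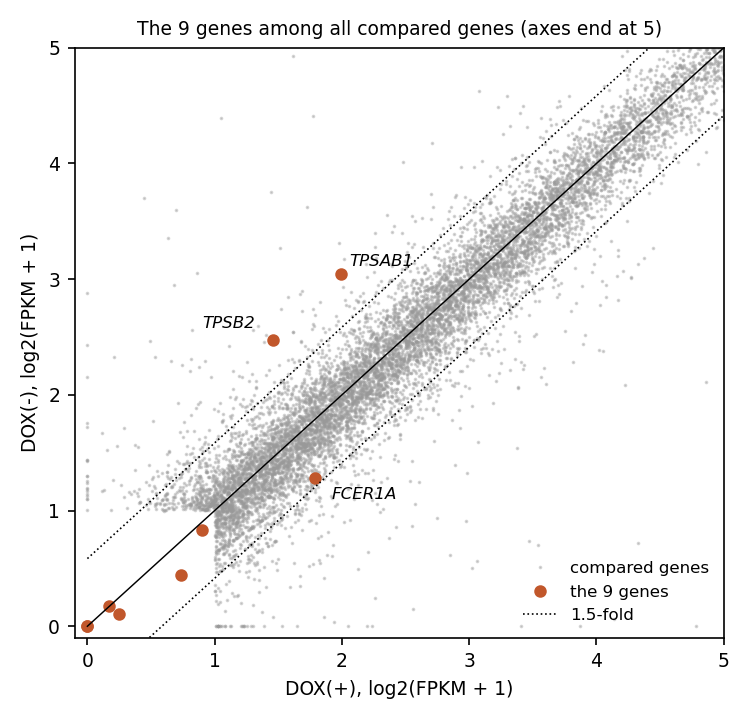
log2(FPKM + 1) in DOX(-) against DOX(+) for the compared genes (grey) and the 9 genes (orange), with the line of equal levels and dotted lines at 1.5-fold; both axes end at 5. TPSAB1 and TPSB2 lie above the upper dotted line, FCER1A lies just inside the lower one, and the other 6 genes lie under 1 FPKM.

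The protein-coding genes whose pair of values was nearest to that of TPSAB1, by the distance between log2(FPKM + 1) values over the 2 libraries, were MTX1 (distance 0.114), TAGAP (0.136), MAP1S (0.174), TST (0.204) and FAM53C (0.210). MTX1 was at 6.62 and 3.02 FPKM and TAGAP at 8.04 and 3.04 FPKM. TPSB2 came at rank 771 by this measure, since its level was lower in both libraries (distance 0.781). With 2 libraries the measure says only that a gene had a similar level and ratio.

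Genes that work with the 9 in mast cells and basophils were mostly expressed at like levels in both libraries. In 5 related lists (103 symbols, 70 compared), 0 were at least 1.5-fold higher in DOX(-) and 2 were at least 1.5-fold lower (2.86%), beside the 3.11% and 4.06% of all compared genes. Their median log2 ratio was 0.03, beside -0.02 for all compared genes, and turned to -0.03 when the libraries were rescaled without mitochondrial genes. The small medians of the lists of granule contents, KIT signalling and surface genes below also turned sign under at least 1 scaling.

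Of 18 genes of granule contents and lipid mediators, 8 were compared, and 0 were higher and 1 lower by the rule (median -0.01). CTSG, the cathepsin G gene shared by neutrophil precursors and mast cells, was at 689.2 and 569.8 FPKM. SRGN, which encodes serglycin, the proteoglycan core on which tryptase is stored, was at 1063 and 1072 FPKM. The gene below the rule was CPD, a carboxypeptidase of the secretory pathway, at 19.8 and 31.0 FPKM (ratio 0.639, counting interval 0.504 to 0.804). PTGS1, the cyclooxygenase-1 gene, was at 8.11 and 6.60 FPKM, and NDST2, which sulfates the heparin of mast cell granules, at 2.03 and 1.55 FPKM. The chymase gene CMA1 was at 0.829 and 0.841 FPKM, SLC18A2, the transporter that loads histamine into granules, was at 0.0561 and 0.0502 FPKM, and HPGDS, which makes prostaglandin D2, was listed at 0. In this list CTSG and SRGN were abundant in both libraries, and CMA1, SLC18A2 and HPGDS were under 1 FPKM or at 0.

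All 21 genes of IgE receptor signalling were above 0 in both libraries and 20 were compared. None passed the rule of 1.5-fold, 16 had a log2 ratio above 0 (13 when rescaled without mitochondrial genes), and the median was 0.10 (0.04). The kinase genes LYN (25.9 and 29.8 FPKM) and SYK (67.1 and 59.3 FPKM), which start the signal, were well expressed. The members furthest apart were STIM1, the calcium sensor of the endoplasmic reticulum (4.56 and 2.72 FPKM, log2 ratio 0.58), the adaptor gene LAT2 (34.4 and 23.4 FPKM, 0.54), the calcium channel gene ORAI1 (14.2 and 10.4 FPKM, 0.41) and the lipid phosphatase gene INPP5D (21.8 and 18.6 FPKM, 0.22). On the shortest transcripts, the counting interval of the STIM1 ratio, 0.918 to 3.02, included equal levels. Those of LAT2 (1.24 to 1.75) and ORAI1 (1.11 to 1.69) did not.

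Of 21 genes of KIT signalling 20 were compared, none passed the rule, and the median was -0.01. The adaptor gene GRB2 (55.6 and 36.8 FPKM, log2 ratio 0.58) lay just inside 1.5-fold on the log2(FPKM + 1) scale. Its plain FPKM ratio was 1.51 (counting interval 1.28 to 1.79). Next were the phosphatase genes DUSP6 (10.2 and 6.90 FPKM, 0.50) and PTPN6 (16.4 and 11.7 FPKM, 0.45). STIM1 and GRB2 passed the 1.5-fold rule under 4 of the 9 alternatives, as given below.

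Of 20 partner factors of GATA2 in blood cells 12 were compared, and 0 were higher and 1 lower by the rule, with a median of -0.08. The lower gene was RUNX1, a factor of blood stem cells and of the myeloid lineage, at 2.79 and 5.04 FPKM (ratio 0.553). Its counting interval of 0.264 to 1.22 on the shortest transcript included equal levels, and a longer transcript was not tried. HHEX was at 3.95 and 6.23 FPKM (0.634, interval 0.446 to 0.902), IKZF1 at 10.1 and 12.3 FPKM, and SPI1, the gene of the myeloid factor PU.1, at 35.5 and 29.4 FPKM. GATA1, the erythroid and mast cell relative of GATA2, was at 0.207 and 0.494 FPKM, and MITF, a factor that mast cells need, was at 0.383 and 0.277 FPKM. GATA2, GATA1 and MITF were therefore all under 1 FPKM in both libraries, while SPI1 was abundant.

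Of 23 surface genes of basophils and mast cells 10 were compared, and none passed the rule (median 0.00). The 4 furthest apart were IL18R1 (1.76 and 2.83 FPKM), CD69 (11.3 and 9.10 FPKM), SIGLEC6 (3.02 and 3.59 FPKM) and the granule membrane gene CD63 (42.5 and 48.6 FPKM). ENPP3, the basophil activation marker CD203c, was at 0.0859 and 0.0865 FPKM. IL5RA, IL1RL1, MRGPRX2 and ADORA3 were listed at 0 in both libraries.

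**Figure D5:**
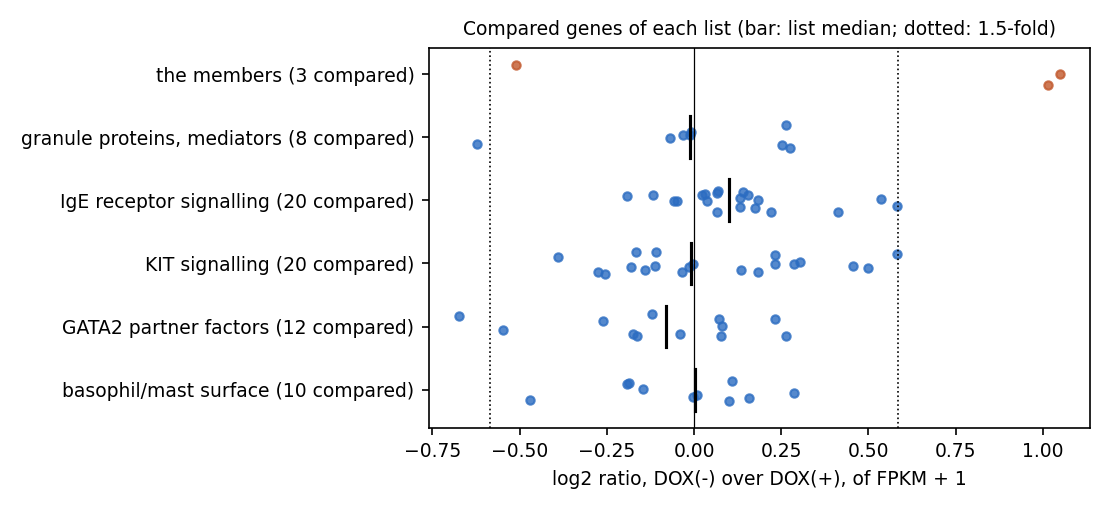
log2 ratio, DOX(-) over DOX(+), of FPKM + 1 for the compared genes of each list (points), with the median of each of the 5 related lists as a bar and dotted lines at 1.5-fold. TPSAB1 and TPSB2 stand at 1.05 and 1.01, beyond every gene of the related lists, whose ratios run from -0.67 to 0.58.

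Marker lists of other cell types were read beside these values. The 10 eosinophil markers summed to 123.3 and 161.4 FPKM, nearly all from RNASE2 and RNASE3, which promyelocytes also express, and EPX, PRG3, CLC and IL5RA were listed at 0, with PRG2 at 0.178 and 0.119 FPKM. The 10 promyelocyte markers summed to 1565 and 1331 FPKM, with none of 9 compared genes past the rule. The 10 erythroid markers summed to 10.7 and 17.8 FPKM, with 2 of 4 compared genes lower in DOX(-) (4.06% of all compared genes). The 2 were the globin genes HBA1 (1.33 and 3.36 FPKM) and HBG1 (5.06 and 8.60 FPKM), and HBB and AHSP were at 0. The 9 megakaryocyte markers summed to 1.53 and 1.93 FPKM, of which ITGA2B gave 1.305 and 1.19 FPKM, and PF4, PPBP and GP1BB were at 0. The 8 monocyte markers summed to 21.8 and 18.9 FPKM, of which CD68 alone gave 21.3 and 18.1 FPKM. CD14 was at 0.0626 and 0.0700 FPKM, CSF1R at 0.127 and 0.0891 FPKM, CD163 at 0.0120 and 0 FPKM, and FCGR3A at 0. The 9 neutrophil markers summed to 8.26 and 8.06 FPKM, with LCN2, MMP9 and FCGR3B at 0. Most of this sum was CSF3R (3.28 and 2.75 FPKM) and CXCR2 (4.49 and 5.00 FPKM). The 10 lymphoid markers summed to 22.4 and 14.5 FPKM, with both compared genes higher in DOX(-) (3.11% of all compared genes), and CD3E, CD3D, MS4A1 and GNLY were at 0. Most of this sum was NKG7 (19.4 and 12.6 FPKM), whose ratio had a counting interval of 1.15 to 2.08. That of the other compared gene, CD79A (1.66 and 0.709 FPKM), was 0.994 to 7.34 on the shortest transcript and included equal levels. The promyelocyte, monocyte and lymphoid sums were higher in the library with the higher tryptase level, and the neutrophil sums were nearly equal. The eosinophil, erythroid and megakaryocyte sums were lower there. Single genes did not all follow their sum. Of the 9 compared promyelocyte markers 4 had a log2 ratio below 0, and ITGA2B, the 1 compared megakaryocyte marker, was slightly above 0. RNASE2 is in both the promyelocyte and the eosinophil list. The part of these cell types in the tryptase values was not tested.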

How the data were processed

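Trizol RNA went into an NEB Ultra library kit, per the labels' protocols. HISAT2 2.1.0, StringTie 1.3.4b, CASAVA 1.8, edgeR, GRCh38 and hg38 appear in the submitters' processing notes without roles. The sources used here do not give strand, read length or annotation release. The deposited file holds 1 FPKM value per gene and library, made by the authors, per the file headers. Each of the 9 symbols matched 1 row.

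Library totals were recovered from genes with 1 transcript in GENCODE 29, whose FPKM values are whole multiples of 1 fragment: 99.6% of 5583 values up to 100 fragments in DOX(-) and 99.6% of 5970 in DOX(+) came out whole within 0.02 fragment. Fragments of other genes are estimates from FPKM and transcript length. Intervals of ratios are exact conditional (Clopper-Pearson) 95% intervals, computed with SciPy 1.17.1 and Python 3.11.15, and the floor is 3 fragments. Log ratios used a pseudocount of 1 FPKM and a filter of 1 FPKM in either library. The calculations were tested on simulated data. The genes changed there stood at higher levels than the genes described here, and reads shared between genes were not simulated.

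The members and the 17 gene lists (180 symbols, all found) were chosen with earlier results of these data known. Named genes are EIF2S3, the 9 members, the 4 genes furthest apart in each related list, 17 other fixed symbols, genes within 100 kb of TPSAB1, the 5 genes nearest to its pair of values, and markers listed at 0. ELANE, PRTN3, AZU1, HPGDS, NKG7, CD79A, RNASE2, RNASE3, HBA1, HBG1, CD68, CD14, CSF1R, CD163, CSF3R and CXCR2 were named after their values were seen. In 2 places a gene that this rule names is not reported here. Alternatives covered the pseudocount, 3 scalings, the filter, the fold threshold, protein-coding genes only, the genes in the tryptase sum and transcript length.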

Additional observations from a re-analysis of the deposited data

How the results depend on the processing

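With 1 library per condition no library could be left out, and depth limits CPA3, TPSD1, HDC and MS4A2 to values near the floor on their shortest transcripts. No paired analysis was possible because each condition has 1 library. TPSAB1 and TPSB2 kept their direction under both other pseudocounts and all 3 scalings, with log2 ratios of 0.99 to 1.25 and 0.96 to 1.33, the lowest of which, without mitochondrial genes, are under 2-fold. FCER1A ranged from -0.74 to -0.50. The number of members 1.5-fold higher fell from 2 to 1 with a filter at 5 FPKM, which TPSB2 does not reach, and the number lower went from 0 to 1 (FCER1A) with a pseudocount of 0.1 or 0.5. In the related lists the number higher went from 0 to 2 (STIM1 and GRB2) with a pseudocount of 0.1 or 0.5 and with median-of-ratios or trimmed-mean scaling, and the number lower from 2 to 4 with a pseudocount of 0.1 and to 0 at 2-fold. Over all genes, 358 were higher and 468 lower, against 631 and 880 with a pseudocount of 0.1, 161 and 205 with a filter at 5 FPKM, 96 and 138 at 2-fold, and 219 and 277 among protein-coding genes only. The last 3 count fewer genes by construction.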
